A study of Saccharomyces cerevisiae with 8 samples.

Results

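Yeast cells that take up arginine, proline or γ-aminobutyrate (GABA) can break them down for their nitrogen, and 10 genes that encode the enzymes, permeases and dedicated activators of these 3 routes were followed across all 8 RNA libraries of an experiment on cells that had lost their mitochondrial DNA (mtDNA). The genes were taken by name from the deposited gene table: CAR1 and CAR2 for arginine, PUT1, PUT2, PUT3 and PUT4 for proline, and UGA1, UGA2, UGA3 and UGA4 for GABA. They are 10 of 7105 genes in that table, and all 10 were among the 5832 genes with enough fragments to be tested. The list was chosen by pathway and uses no threshold on any value, but the levels and fold changes of these same libraries were known when it was drawn up, so the tests below describe these libraries and are not independent evidence about the genes.

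Arginine is split in the cytosol by arginase, Car1p, into urea and ornithine, and the ornithine transaminase Car2p passes the ornithine on towards proline. Proline is then oxidised inside mitochondria, first by the proline oxidase Put1p, which hands electrons to the respiratory chain, and then by the dehydrogenase Put2p, which yields glutamate. GABA is taken apart by the transaminase Uga1p and the succinate semialdehyde dehydrogenase Uga2p, which yields succinate. Each route has inducers of its own: arginine acts through the ArgR/Mcm1p complex on CAR1 and CAR2, proline through Put3p on PUT1 and PUT2, and GABA through Uga3p and Dal81p on the UGA genes. Good nitrogen sources repress many of these genes through the GATA factors Gln3p, Gat1p, Dal80p and Gzf3p, and Ume6p represses CAR1 and CAR2 through the URS1 element.

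All cells were the diploid strain BY4743 of Saccharomyces cerevisiae, homozygous for his3Δ1, leu2Δ0 and ura3Δ0 and heterozygous for lys2Δ0 and met15Δ0. All carried a high-copy (2μ) URA3 plasmid and grew in medium without uracil. That medium held glucose, yeast nitrogen base and casamino acids, and the authors describe it as replete with amino acids. Cells labelled ρ+ carried the empty vector pRS426, kept their mtDNA and received no ethidium bromide. The other 3 groups were ρ0 cells, freed of mtDNA by 24 h in 25 µg/ml ethidium bromide, that carried either the same empty vector, a plasmid with TIP41 (a regulator of the TORC1 branch that acts on Tap42p and its phosphatases) or a plasmid with PDE2 (the cyclic AMP phosphodiesterase that lowers protein kinase A activity). The drug was still in the medium when the ρ0 cells were collected. Each group had 2 libraries, numbered 0 and 1. Since every ρ0 culture had been treated and no ρ+ culture had, loss of mtDNA and exposure to ethidium bromide cannot be told apart, and the 2 plasmids differ from the vector by their whole inserts. The libraries were made from polyadenylated RNA of whole cultures, in which fewer cells of one kind and less of an RNA per cell cannot be told apart.

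The libraries held between 1389579 and 4884282 fragments in genes, the fewest in the ρ+ library of replicate 1 and the most in the ρ+ library of replicate 0. The 55 genes of the mtDNA in the table gave 9 and 6 fragments in the ρ+ libraries and 0 in each of the 6 ρ0 libraries, and LEU2 gave 0 fragments in all 8 libraries. TIP41 was 12.1-fold higher with its plasmid than in ρ0 vector cells and PDE2 was 3.62-fold higher with its own (edgeR, adjusted p = 1.44e-07 and 4.67e-05). URA3, carried by every plasmid, was 2.53-fold lower with the TIP41 plasmid and 7.05-fold lower with the PDE2 plasmid than with the vector (adjusted p = 0.0048 and 5.81e-06). Of 6 haploid-specific genes that a diploid should lack, the a-factor genes MFA1 and MFA2 gave at most 1 fragment in any library. In ρ0 vector replicate 0, 1 fragment of MFA1 was 211 FPKM (fragments scaled to length and library size), so these low counts do not show absence. Over the 8 libraries MF(ALPHA)1 gave 2 to 15 fragments, MF(ALPHA)2 8 to 24, STE2 13 to 58 and STE3 3 to 23. The summed level of all 6 was 21.0 to 21.3 CPM (fragment counts scaled to a common library size by TMM) in ρ+ vector, and in ρ0 cells 37.9 to 41.4 with the vector, 26.1 to 33.8 with TIP41 and 24.9 to 29.4 with PDE2. The pheromone receptor genes STE2 and STE3 were both past the threshold in ρ0 vector against ρ+ vector cells, 1.90-fold and 5.33-fold higher. STE3 rested on 7.35 and 3 fragments in the ρ+ libraries. The part of haploid-specific transcripts in the results below was not tested.

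The letters before the genes are shown first. The motifs searched are those of Put3p, Uga3p, the GATA factors and Ume6p. No site of the ArgR/Mcm1p complex or of Dal81p was searched, so the arginine genes were not read for their own inducer. In the 300 bases from 250 before to 50 after each gene start in the R64 genome, the Put3p motif CGGNNNNNNNNNNCCG was found before 1 of the 10 genes (PUT2), against 1.08% of all 6001 protein-coding genes read. The core of the GABA element bound by Uga3p, CCGCNNGCGG, was found before none of the 10 in that window, against 0.15% of all genes. A longer window, from 500 before to 50 after the start, was searched after the first result was seen: it held the Put3p motif before PUT1 and PUT2 (2.78% of 6000 genes) and the GABA element before UGA1 and UGA4 (0.35% of them). The GATA motif, GATAAG, was found before PUT1, PUT2 and UGA3 in the shorter window (14.7% of genes) and also before UGA4 in the longer one (24.7%). The URS1 core, GCCGCC, was found before CAR1, PUT3 and UGA2 in the shorter window (5.13% of genes) and, overlapping the GABA element, before UGA4 in the longer one (10.5%). All motifs were read on both strands. A match is a run of letters and not a shown site, and a missing match says only that these letters are not in the window.

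Given here are the Put3p motifs, the GABA elements and the URS1 cores before CAR1 and UGA2, 7 matches in all. The URS1 cores before PUT3 and UGA4 and all GATA motifs are left out. This choice does not tie a motif to a fold change. The 7 matches are written 5′ to 3′ on the strand of the gene, with the matched letters in capitals, in coordinates of R64. All 7 lie before genes on the forward strand.
CAR1, URS1 core, 155 bases before the start, chrXVI:339777-339806: cacttagcggtaGCCGCCgaggggtctaaa
PUT1, Put3p motif, 308 bases before the start, chrXII:424871-424900: ttcctttCGGCAATGGCTTTCCGgttacca
PUT1, Put3p motif, 280 bases before the start, chrXII:424899-424928: cacgcctCGGGTTTCGCATCCCGaaaagca
PUT2, Put3p motif, 166 bases before the start, chrVIII:181804-181833: gacatctCGGGAAGCCAACTCCGaagccga
UGA1, GABA element, 382 bases before the start, chrVII:524837-524866: ttgacaaaagCCGCGGGCGGgattcctgtg
UGA2, URS1 core (reverse strand), 204 bases before the start, chrII:246794-246823: gggattagcaaaGGCGGCcaatggattaag
UGA4, GABA element, 399 bases before the start, chrIV:83861-83890: gcgccaaaaaCCGCCGGCGGcaatttcgag

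**Figure D1:**
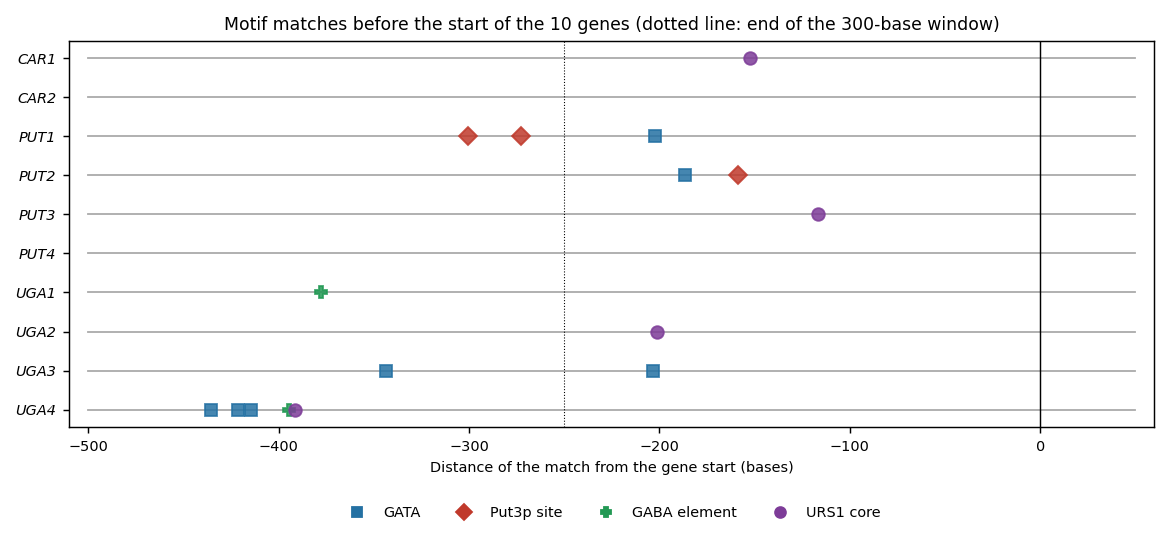
Positions of the 4 motifs before the 10 genes; the horizontal axis is the distance in bases of the middle of each match from the gene start, and each row is 1 gene. PUT1 and PUT2 carry Put3p motifs, and UGA1 and UGA4 carry GABA elements. CAR2 and PUT4 carry none of the 4 motifs in the 550 bases shown, and sites of the ArgR/Mcm1p complex were not searched.

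Per length, the arginase gene was the most abundant of the 10 transcripts in ρ+ cells. On the FPKM scale (fragments scaled to transcript length and library size, as deposited), CAR1 was at 128 ± 36.8 (SD, n = 2) in ρ+ vector cells, followed by PUT2 at 73.3 ± 0.603, UGA1 at 54.3 ± 6.94, CAR2 at 52.7 ± 27.6, PUT3 at 32.4 ± 5.79, UGA3 at 30.4 ± 3.85 and UGA2 at 24.8 ± 1.93. PUT1 at 7.38 ± 1.66, UGA4 at 5.83 ± 1.31 and PUT4 at 1.73 ± 0.286 were the lowest. The libraries of UGA1 and CAR2, CAR2 and PUT3, PUT3 and UGA3, and PUT1 and UGA4 overlapped, so the order within those pairs is not resolved by 2 libraries. In ρ0 vector cells the first places were held by UGA1 at 78.1 ± 0.874 and UGA2 at 59.0 ± 2.66 FPKM, ahead of PUT2 at 52.2 ± 3.11 and CAR1 at 49.3 ± 5.12, whose libraries overlapped. With the TIP41 plasmid CAR1 was first again at 84.9 ± 3.31 FPKM, above UGA1 at 76.2 ± 5.23. With the PDE2 plasmid CAR1 was at 102 ± 31.1 and UGA1 at 78.9 ± 19.1, and their libraries overlapped. The enzyme genes thus spanned a wide range, and both permease genes, PUT4 and UGA4, had the lowest 2 means of the 10 in 4 of 4 groups.

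Of the 10 genes, 3 were past the threshold in ρ0 vector against ρ+ vector cells, where 13.9% of all genes tested were. Arginase fell, as 6.38% of all genes did, and both enzymes of GABA breakdown rose, as 7.49% of all genes did. The median log2 fold change of the 10 was 0.23, against 0.01 over all genes tested. The 2 libraries of each group did not overlap for 6 of the 10 genes, 3 higher and 3 lower in ρ0 vector cells, and they did not overlap for 56.7% of all genes (28.7% higher, 27.9% lower).

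CAR1 (YPL111W, chromosome XVI, 339944 to 340945) was at 109.9 and 138 CPM in the ρ+ libraries and at 57.6 and 41.2 in the ρ0 vector libraries. Both ρ0 values lay well below both ρ+ values, and the groups did not overlap. The fold change was 2.47-fold lower without mtDNA (log2 fold change -1.30, SE 0.18, adjusted p = 4.17e-04), and it was past the threshold in 16 of 16 alternative fits. Within replicate 0 the log2 ratio was -0.93 and within replicate 1 it was -1.75.

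CAR2 (YLR438W, chromosome XII, 1012459 to 1013775 as deposited), the next enzyme of the route, was at 50.04 and 85.5 CPM in ρ+ and at 49.0 and 25.8 in ρ0 vector libraries. The values of replicate 0 were nearly equal in the 2 groups, and nearly all of the difference came from replicate 1. The log2 fold change was -0.77 with an SE of 0.74 (95% interval -2.77 to 1.22, adjusted p = 0.572). CAR2 overlaps the opposite-strand gene YLR437C-A, at 1.61 to 5.41 CPM over the libraries, and since no strand setting is named for the counting, the reads of the 2 genes cannot be told apart.

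UGA2 (YBR006W, chromosome II, 247010 to 248503), the succinate semialdehyde dehydrogenase, was at 32.6 and 37.2 CPM in the ρ+ libraries and at 80.7 and 87.2 in the ρ0 vector libraries. The 2 groups stood well apart, and the within-replicate log2 ratios, 1.31 and 1.23, were close to each other. UGA2 rose 2.45-fold (log2 fold change 1.29, SE 0.18, adjusted p = 2.92e-04) and was past the threshold in 16 of 16 alternative fits.

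UGA1 (YGR019W, chromosome VII, 525229 to 526644), the GABA transaminase, was at 70.1 and 79.2 CPM in ρ+ and at 110.2 and 106 in ρ0 vector libraries. The groups did not overlap, and the change was smaller than that of UGA2. UGA1 rose 1.46-fold (log2 fold change 0.55, SE 0.17, adjusted p = 0.0404), but the call was lost in 9 of 16 alternative fits, with adjusted p from 0.00986 to 0.333. The other 2 UGA genes were not past the threshold. The activator gene UGA3 (YDL170W) was at 47.2 and 42.1 CPM in ρ+ and at 46.1 and 73.8 in ρ0 vector libraries, where replicate 1 alone was high. The permease gene UGA4 (YDL210W) was at 6.56 and 11.2 CPM in ρ+ and at 7.20 and 7.67 in ρ0 vector libraries, on 5 to 32 fragments in any of the 8 libraries.

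None of the 4 proline genes passed the threshold in the fit of all 8 libraries without a replicate block. PUT2 (YHR037W), the second enzyme, was at 127 and 123 CPM in ρ+ and at 95.4 and 84.3 in ρ0 vector libraries. Both ρ0 libraries were lower, and the fitted difference was -0.48 on the log2 scale (SE 0.18, adjusted p = 0.106). PUT4 (YOR348C), the proline permease, was at 4.10 and 2.80 CPM in ρ+ and at 7.92 and 11.7 in ρ0 vector libraries, on 4 to 29 fragments over all 8 libraries. Its log2 fold change was 1.37 (SE 0.45, adjusted p = 0.0562). The 2 groups did not overlap for either gene. PUT1 (YLR142W), the proline oxidase, gave 12 to 54 fragments a library and was at 11.1 and 8.41 CPM in ρ+ and at 15.5 and 10.9 in ρ0 vector libraries, which overlapped. The activator gene PUT3 (YKL015W) was at 92.9 and 84.1 CPM in ρ+ and at 78.5 and 112 in ρ0 vector libraries, with 1 ρ0 library below and 1 above both ρ+ libraries. With the replicate number as a block, PUT2 and PUT4 passed as well (adjusted p = 0.0178 and 0.0318), so that 5 of the 10 genes did, where 19.9% of all genes did. Over all alternative fits, the block included, PUT2 passed in 4 of 16 and PUT4 in 5 of 15.

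**Figure D2:**
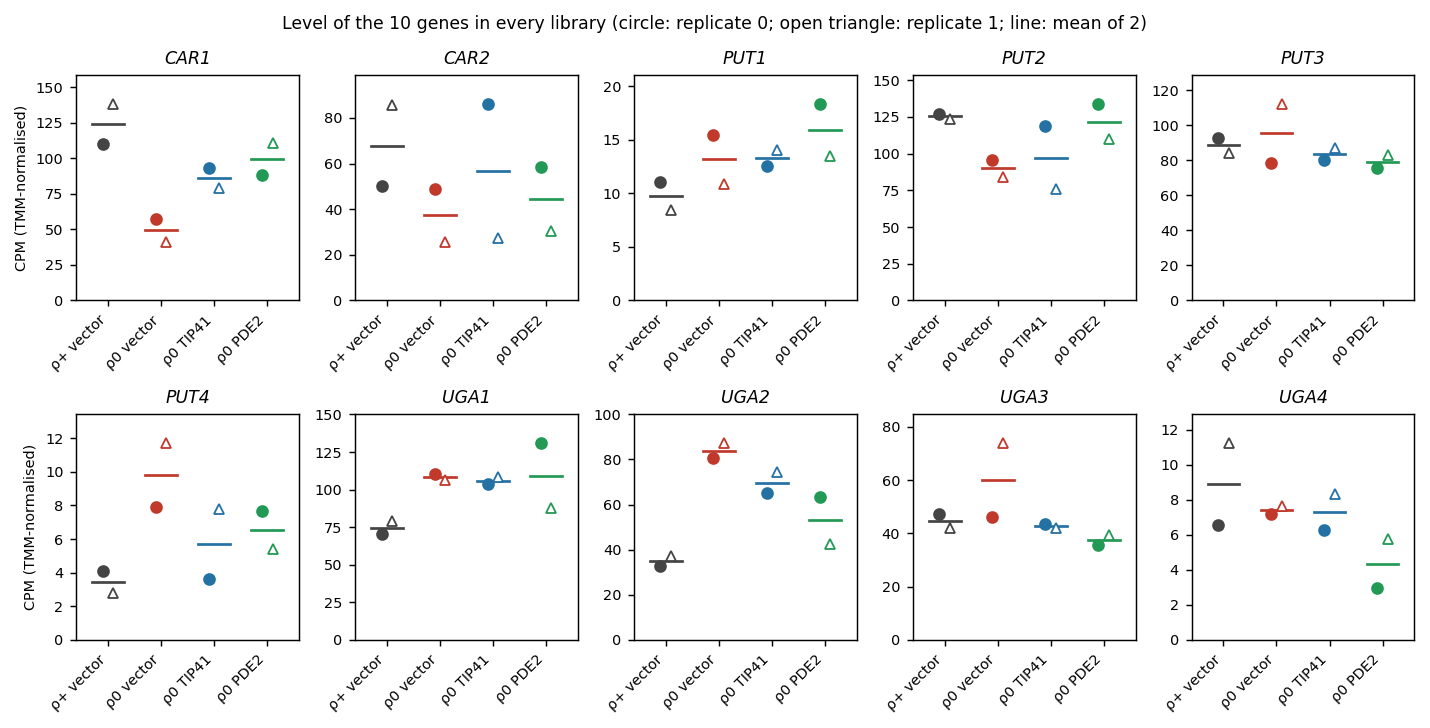
Level of each of the 10 genes in CPM (vertical axes, each from 0) in the 8 libraries, by group; filled circles are replicate 0, open triangles replicate 1, and lines the mean of 2. CAR1 is lowest in ρ0 vector libraries (41.2 to 57.6 CPM), UGA2 is highest there (80.7 to 87.2 CPM), and CAR2 differs more between replicates than between groups.

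With PDE2 overexpression in ρ0 cells arginase was higher than with the vector. This comparison shares the ρ0 vector libraries with the first, so an opposite sign is not a separate result. Of the 10 genes, 1 was past the threshold in ρ0 PDE2 against ρ0 vector cells, where 2.3% of all genes tested were, and the median log2 fold change of the 10 was -0.13, against -0.02 over all genes. CAR1 was at 88.2 and 110.5 CPM with the PDE2 plasmid and at 57.6 and 41.2 with the vector. Both PDE2 libraries were above both vector libraries. CAR1 rose 2.02-fold (log2 fold change 1.01, SE 0.19, adjusted p = 0.0151). The call was lost without ρ0 vector replicate 1 (adjusted p = 0.0655), without ρ0 PDE2 replicate 1 (0.0922) and in 3 more of the 16 alternative fits, and the fold change stayed between 0.80 and 1.28 on the log2 scale in all of them.

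The 4 UGA genes had fold changes near or below 0 with PDE2, none of them past the threshold in the fit of all 8 libraries without a block. UGA2 was at 63.3 and 42.6 CPM with PDE2, below both ρ0 vector libraries and above both ρ+ libraries. Its log2 fold change against ρ0 vector cells was -0.69 (SE 0.18, adjusted p = 0.0574). UGA3 was at 35.5 and 39.6 CPM, again below both ρ0 vector libraries (log2 fold change -0.66, SE 0.21, adjusted p = 0.0981). UGA1, at 131 and 87.6 CPM, lay on both sides of its ρ0 vector values (log2 fold change -0.01, 95% interval -0.36 to 0.34). UGA4, at 2.96 and 5.75 CPM, rested on 5 and 17 fragments, and its interval, from -1.63 to 0.29, held no change. PUT2 was at 134 and 109.9 CPM, above both ρ0 vector libraries (log2 fold change 0.43, SE 0.19, adjusted p = 0.226). PUT1 at 18.3 and 13.5, PUT3 at 75.8 and 82.8 and PUT4 at 7.70 and 5.41 CPM had intervals that held no change, and so did CAR2, whose 58.6 and 30.4 CPM were split between the replicates as in the other ρ0 groups. With the replicate number as a block, PUT2, UGA2 and UGA3 passed as well (adjusted p = 0.0461, 0.00886 and 0.0237), so that 4 of the 10 genes did, where 9.79% of all genes did. Over all alternative fits, the block included, UGA2 passed in 4 of 16, UGA3 in 2 and PUT2 in 1. The groups did not overlap for 6 of the 10 genes, and for 49.8% of all genes.

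**Figure D3:**
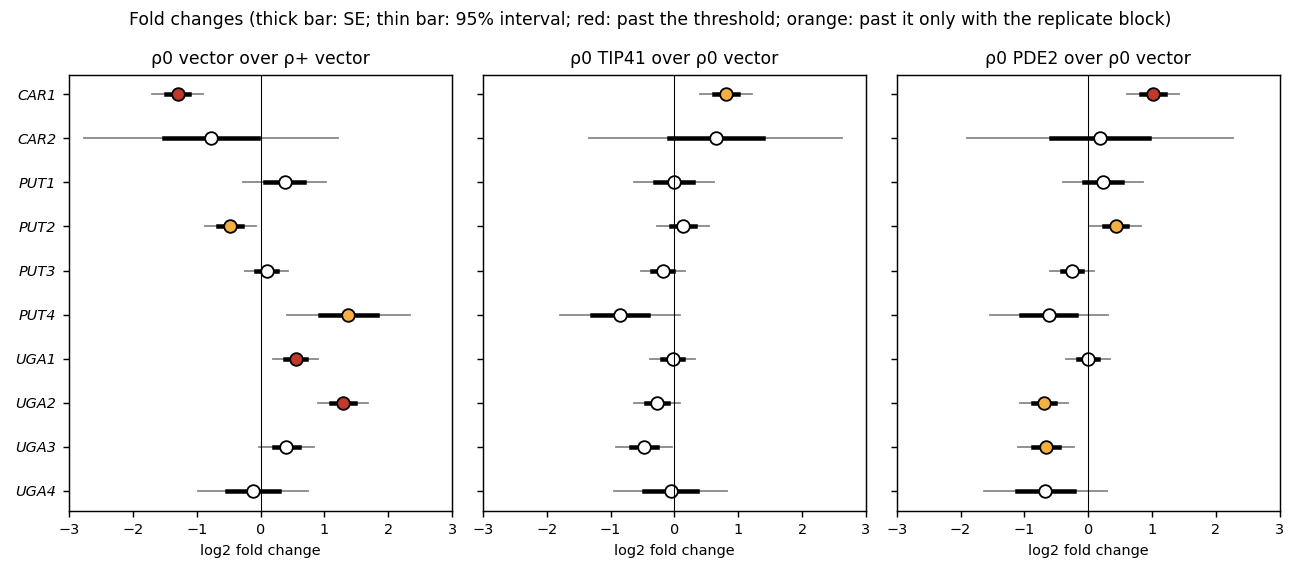
Log2 fold change of each gene (horizontal axes) in ρ0 vector over ρ+ vector, ρ0 TIP41 over ρ0 vector and ρ0 PDE2 over ρ0 vector cells, with the SE (thick bar) and 95% interval (thin bar); red points are past the threshold and orange points only with the replicate block. CAR1 is at -1.30 without mtDNA, 0.80 with TIP41 and 1.01 with PDE2, and the widest bars are those of CAR2.

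With the TIP41 plasmid 0 of the 10 genes were past the threshold (edgeR), where 0.412% of all genes were; 2 had an unadjusted p under 0.05, and DESeq2 and limma also called 0. The median log2 fold change of the 10 was -0.04, against 0.01 over all genes. CAR1 was at 93.4 and 79.0 CPM, above both ρ0 vector libraries (log2 fold change 0.80, SE 0.19, adjusted p = 0.129), and passed with the replicate number as a block (adjusted p = 0.0185), where 1.95% of all genes did. UGA2 was at 65.0 and 74.3 CPM, below both ρ0 vector libraries (log2 fold change -0.27, SE 0.17, adjusted p = 0.616). UGA3 was at 43.5 and 42.1 CPM, close to its ρ+ values and below both ρ0 vector libraries (log2 fold change -0.48, SE 0.20, adjusted p = 0.429). UGA1 at 104 and 108, PUT1 at 12.5 and 14.03, PUT2 at 119 and 75.9, PUT3 at 80.2 and 87.3 and UGA4 at 6.27 and 8.32 CPM overlapped their ρ0 vector values. CAR2 at 86.1 and 27.5 CPM had the widest gap between replicates of any group. PUT4 at 3.63 and 7.80 CPM lay below both ρ0 vector libraries, on 11 and 15 fragments. The groups did not overlap for 4 of the 10 genes, and for 41.9% of all genes.

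Between the 2 plasmids no difference was past the threshold for any of the 10 genes (edgeR, 0.394% of all genes were); 1 of the 10, UGA2, had an unadjusted p under 0.05, and DESeq2 and limma called 0. CAR1 was at 99.4 ± 15.8 CPM with PDE2 and at 86.2 ± 10.2 with TIP41 (SD, n = 2), a log2 difference of 0.21 with a 95% interval of -0.18 to 0.60. UGA2 was at 53.0 ± 14.7 with PDE2 and at 69.7 ± 6.60 with TIP41, a log2 difference of -0.42 with an interval of -0.81 to -0.03 (adjusted p = 0.693). These intervals leave room for differences in either or one direction, so they do not show that the 2 plasmids acted alike on these genes.

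Set against ρ+ vector cells, where CAR1 was at 124 ± 20.0 and UGA2 at 34.9 ± 3.22 CPM (SD, n = 2), the means of both genes in ρ0 cells with either plasmid lay between those of ρ+ vector and ρ0 vector cells, the latter being 49.4 ± 11.6 for CAR1 and 83.9 ± 4.58 for UGA2. These comparisons share the ρ+ libraries with the first one and the plasmid libraries with the next ones, so they are not separate evidence. In ρ0 TIP41 against ρ+ vector cells 1 of the 10 genes was past the threshold, where 5.25% of all genes were: UGA2 was 2.02-fold higher (log2 fold change 1.02, SE 0.19, adjusted p = 0.00466). The call was lost without ρ+ vector replicate 0 (adjusted p = 0.165), without ρ0 TIP41 replicate 1 (0.0536) and in both limma fits. In ρ0 PDE2 against ρ+ vector cells 0 of the 10 were past it (edgeR), where 5.13% of all genes were; 2 had an unadjusted p under 0.05, and DESeq2 and limma called 0. There the log2 fold changes were 0.60 for UGA2 (SE 0.19, adjusted p = 0.0948) and 0.54 for UGA1 (SE 0.17, adjusted p = 0.0807). The log2 fold change of CAR1 against ρ+ vector cells was -0.29 (95% interval -0.67 to 0.09) with PDE2 and -0.50 (-0.88 to -0.12, adjusted p = 0.141) with TIP41. With the replicate number as a block, UGA1 and UGA2 passed in both comparisons (with PDE2, adjusted p = 0.0256 and 0.0452, where 9.65% of all genes passed; with TIP41, 0.0278 and 1.93e-04, where 9.59% passed).

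CAR2 differed widely between the replicates of each group. In the ρ+ group replicate 1 was the higher library (85.5 against 50.04 CPM), and in each of the 3 ρ0 groups replicate 0 was the higher one (49.0 against 25.8 with the vector, 86.1 against 27.5 with TIP41, 58.6 against 30.4 with PDE2). Different experimenters made the 2 replicates. The log2 ratio of ρ0 vector to ρ+ vector was -0.03 in replicate 0 and -1.73 in replicate 1. CAR1, by comparison, had its ρ0 vector libraries below every other library in both replicates.

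The genes whose pattern over the 8 libraries was most like that of each member were found by the root mean square difference of log2 CPM, each gene centred on its mean, among 5248 protein-coding genes (5249 for PUT4 and UGA4). For CAR1 they were CCP1 (mitochondrial cytochrome c peroxidase), SOD2 (mitochondrial superoxide dismutase) and ERG11 (an ergosterol synthesis enzyme), at 0.19, 0.20 and 0.20, where the spread of CAR1 itself was 0.52. For UGA2 they were CPA1 (a subunit of the carbamoyl phosphate synthetase of arginine synthesis) at 0.14, and RNR3 (a ribonucleotide reductase subunit) and YHR138C at 0.17, where the spread of UGA2 was 0.50. For UGA1 the nearest was BUB2 (a mitotic checkpoint component) at 0.07, and for CAR2 the nearest, CSM2, was at 0.30 of a spread of 0.64. These are descriptions over 8 libraries that share their preparation. No other member was among the 3 nearest genes of any member. PUT4 and UGA4 could not have been, since candidates needed a minimum mean level that both fell below.

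The genes that make arginine had fold changes of the opposite sign to those of CAR1. Of 9 genes of arginine synthesis, 9 had positive fold changes in ρ0 vector against ρ+ vector cells (median log2 fold change 1.12, 2 past the threshold), as did 2975 of all 5832 genes, and 9 had negative ones with PDE2 (median -1.34, 2 past the threshold), as did 3094 of all genes. Over all genes tested, 13.9% were past the threshold in ρ0 vector against ρ+ vector cells and 2.3% with PDE2. The ρ0 vector libraries stand in both comparisons, so the opposite signs are not 2 separate results. CPA1 was at 272 and 288 CPM in ρ+ libraries. It reached 617 and 597 CPM in ρ0 cells with the vector, 515 and 480 with TIP41, and 430.3 and 378 with PDE2. It rose without mtDNA (log2 fold change 1.12, SE 0.14, adjusted p = 1.36e-04) and fell with PDE2 (-0.59, SE 0.14, adjusted p = 0.0458). ARG3, the ornithine carbamoyltransferase, was at 7.998 and 4.91 CPM in ρ+ libraries. Its ρ0 levels were 14.8 and 33.1 CPM with the vector, 6.93 and 8.84 with TIP41, and 7.70 and 7.775 with PDE2. It rose without mtDNA (1.74, SE 0.38, adjusted p = 0.00808) and fell with PDE2 (-1.61, SE 0.39, adjusted p = 0.0497), and the higher of its ρ0 vector values came from replicate 1. The calls with PDE2 held in 6 of 16 alternative fits for CPA1 and in 4 of 15 for ARG3. With the replicate block 4 of the 9 genes passed in each of these comparisons, where 19.9% and 9.79% of all genes did. With TIP41 9 of 9 had negative fold changes (median -1.14), as did 2832 of all genes. None of the 9 was past the threshold without the block, where 0.412% of all genes were. With the block 3 were past it, where 1.95% of all genes were.

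Of 8 listed regulators of the 3 routes other than PUT3 and UGA3, 1 was past the threshold in ρ0 vector against ρ+ vector cells: ARG80, a subunit of the ArgR/Mcm1p complex, was at 36.1 and 43.5 CPM in ρ+ and at 56.5 and 60.9 in ρ0 vector libraries (log2 fold change 0.59, SE 0.17, adjusted p = 0.0272, past the threshold in 11 of 16 alternative fits). Over all genes tested, 13.9% were past the threshold in that comparison. None of the 8 was past it with PDE2 or with TIP41, where 2.3% and 0.412% of all genes were. UME6, which encodes the URS1-binding repressor whose core motif was found before CAR1, PUT3 and UGA2, was not past the threshold in any comparison in that fit, nor were DAL81 or the corepressor genes SIN3 and RPD3. Of the 5 genes for factors of nitrogen repression, 4 had enough fragments to be tested. Of these 4, 0 were past the threshold in any comparison in the fit of all 8 libraries, with or without the block. Without the block, 0.394% to 13.9% of all genes were past the threshold in a comparison.

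Of 11 genes of allantoin and urea use and of general amino acid and ammonium uptake, 10 had positive fold changes in ρ0 vector against ρ+ vector cells (median log2 fold change 0.48), as did 2975 of all 5832 genes, and 1 was past the threshold, where 13.9% of all genes were. MEP2, the high-affinity ammonium permease, was at 24.0 and 19.6 CPM in ρ+ and at 43.6 and 46.0 in ρ0 vector libraries (log2 fold change 0.99, SE 0.26, adjusted p = 0.0251, past the threshold in 10 of 16 alternative fits). With PDE2 5 of the 11 had positive fold changes and 0 were past the threshold, where 2.3% of all genes were. In ρ0 PDE2 against ρ+ vector cells 1 of the 11, given here as a count only, was past it, where 5.13% of all genes were. With the replicate block 3 of the 11 passed in that comparison, where 9.65% of all genes did. With the replicate block 3 of the 11 passed without mtDNA, where 19.9% of all genes did. With PDE2 against ρ0 vector cells 1 passed with the block, where 9.79% of all genes did. It was GAP1, at 49.1 and 93.0 CPM with PDE2 and at 36.0 and 48.4 with the vector. Its log2 fold change with the block was 0.74 (adjusted p = 0.0124). GAP1 also passed with the block in ρ0 PDE2 against ρ0 TIP41 cells (0.90, adjusted p = 0.0125). There 16 of 5832 genes passed as higher and 38 as lower. Of PRO1, PRO2 and PRO3, which make proline, and GAD1, which makes GABA from glutamate, 0 of 4 were past the threshold in any comparison. The same held for CAN1, ALP1 and ORT1, which carry arginine or ornithine across membranes. These counts are from the fit of all 8 libraries without a block, where 0.394% to 13.9% of all genes were past it per comparison. With the block PRO3 passed without mtDNA (log2 fold change -0.38, adjusted p = 0.0498), where 19.9% of all genes did. It also passed with PDE2 against ρ0 vector cells (0.49, adjusted p = 0.0208), where 9.79% did. In ρ0 TIP41 against ρ+ vector cells 1 of these 4 genes passed with the block, where 9.59% of all genes did.

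**Figure D4:**
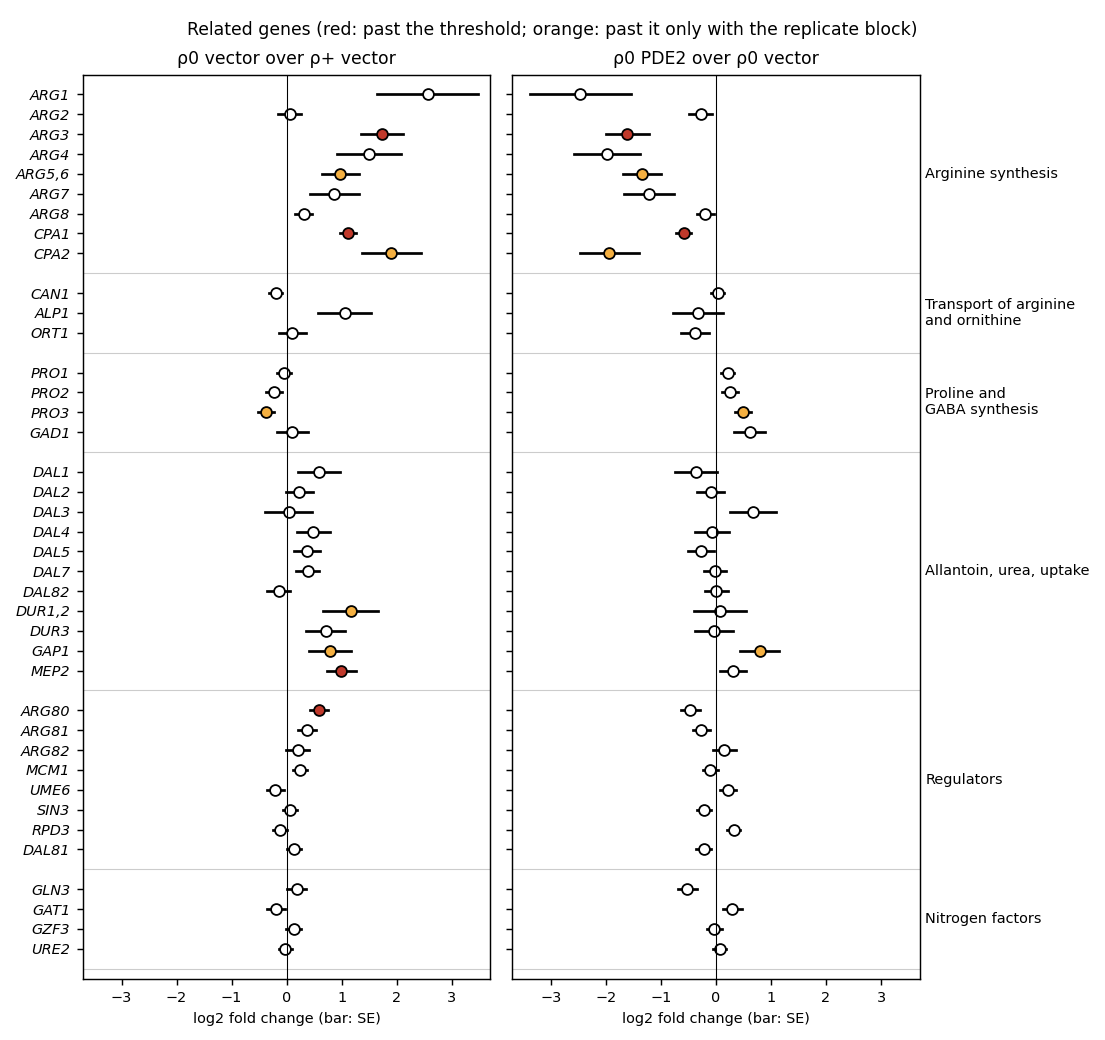
Log2 fold change (horizontal axes, bars are the SE) of 39 genes of arginine, proline and GABA synthesis, transport, nitrogen repression and regulation, in ρ0 vector over ρ+ vector (left) and ρ0 PDE2 over ρ0 vector cells (right); red points are past the threshold and orange points only with the replicate block. All 9 genes of arginine synthesis lie right of 0 on the left and left of 0 on the right, while the regulators stay between -0.46 and 0.59.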

How the data were processed

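Polyadenylated RNA was sequenced as paired reads. Per the deposited labels and methods, the authors aligned reads to the R64 genome with TopHat2 (2.0.14) and estimated fragments per gene with Cuffdiff (2.2.1.1), with geometric normalization, multi-read and bias correction. They deposited estimated counts and FPKM per gene and library, and a table of authors' mean FPKM and comparisons, whose fold changes and p-values were not used. Estimated counts were rounded, scaled by TMM to CPM and tested in 1 edgeR (4.0.16, R 4.3.3) quasi-likelihood fit of 8 libraries, with Benjamini-Hochberg adjustment over 5832 genes and a threshold of 0.05. The 10 genes, the lists and the rule for named genes (all members, list genes past the threshold, the 3 most alike) were chosen with earlier results of these data known. Contrary to that rule, list genes past the threshold in ρ0 PDE2 or ρ0 TIP41 against ρ+ vector cells were not named for those comparisons. The 16 alternatives included DESeq2 (1.42.0), limma (3.58.1) on log2(FPKM + 1) and log2(FPKM + 0.1), a replicate block and leaving out each library. Same-numbered libraries deviated together in 6 of 6 group pairs (r from 0.20 to 0.52). The main fit nevertheless held no term for the replicate number, and its calls do not account for this pairing. Only the replicate block alternative paired same-numbered libraries. Different experimenters made the replicates, which are separate cultures. Promoters were read from the R64 genome, where 99.6% of comparable genes had the deposited place. Proteins were not compared here.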

Additional observations from a re-analysis of the deposited data

How the results depend on the processing

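Over 39 fold changes (all 10 genes without mtDNA, with PDE2 and with TIP41, and CAR1, UGA1 and UGA2 in the other 3 comparisons) and 16 alternatives (15 for PUT1, PUT4 and UGA4), 547 of 615 values kept their direction and side of the threshold, 29 passed it only in the alternative, 18 lost it, and 21 changed sign, none of these past the threshold. The calls of CAR1 and UGA2 in ρ0 vector against ρ+ vector cells held in every alternative. In the same comparison DESeq2 called 2 of the 10 genes, and each of the limma fits also called 2. The number of the 10 genes past the threshold in that comparison (3) was 5 with only the 2 groups compared and 5 with the replicate block, and 2 to 4 with 1 library left out. With PDE2 against ρ0 vector (1) it was 2 with a filter of 50 fragments, 0 with only the 2 groups, 4 with the replicate block, 0 in both limma fits and 0 to 3 with 1 library left out. With TIP41 (0) it was 1 with the replicate block and 0 to 2 with 1 library left out. In ρ0 PDE2 against ρ+ vector (0) it was 2 with the replicate block and 0 to 2 with 1 library left out. In ρ0 TIP41 against ρ+ vector (1) it was 3 with only the 2 groups, 2 with the replicate block, 0 in both limma fits and 0 to 2 with 1 library left out. Between the plasmids it stayed 0.

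Sign changes were seen only in values not past the threshold. The log2 fold change of UGA1 with PDE2 (-0.01) was 0.0056 with DESeq2 and 0.0041 with only the 2 groups, and that of PUT1 with TIP41 (-0.01) was 0.014 and 0.018 by limma. With 1 library left out, the ranges that crossed 0 among these 39 were, without mtDNA, -0.59 to 0.18 for UGA4 and -0.18 to 0.33 for PUT3; with PDE2, -0.30 to 0.28 for UGA1, -0.30 to 0.72 for CAR2 and -0.49 to 0.020 for PUT3; with TIP41, -0.23 to 0.27 for PUT1, -0.43 to 0.089 for PUT3, -0.45 to 1.20 for CAR2, -0.25 to 0.39 for PUT2 and -0.25 to 0.16 for UGA4; and between the plasmids, -0.26 to 0.33 for UGA1. The causes were not tested. Over all genes the block raised the calls from 809 to 1160 without mtDNA, from 134 to 571 with PDE2 and from 24 to 114 with TIP41. PUT1, PUT4 and UGA4, at 4 to 54 fragments a library, are limited by depth, and leaving out a library leaves a group of 1 that is assumed to vary like the others.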
